A study of Mus musculus with 62 samples.

Results

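The genes described here are 8 transcripts used to tell apart inhibitory interneurons of the forebrain: the calcium-binding proteins parvalbumin (Pvalb), calbindin (Calb1) and calretinin (Calb2), and the neuropeptides somatostatin (Sst), neuropeptide Y (Npy), cortistatin (Cort), cholecystokinin (Cck) and corticotropin-releasing hormone (Crh). They were chosen by name, and their rows were found by Ensembl identifier. Of the 8 genes, 7 were among the 12483 genes counted: 7 in the table of the nucleus accumbens (NAc) and prefrontal cortex (PFC), which holds 11569 rows, and 4 (Calb1, Calb2, Sst and Cck) in the table of the suprachiasmatic nucleus (SCN), which holds 12047 rows. Cort was in neither table and is not analysed here. The study exposed C57BL/6J mice to circadian rhythm disruption (CRD), a series of reversals of the light/dark cycle, and kept control mice on a fixed cycle. Punches of frozen brain were taken about 4 weeks later at zeitgeber time 6 (ZT6, in the light phase), and RNA of each punch gave a library: 26 from the NAc, 17 from the PFC and 19 from the SCN, from 26 mice. Beyond the region and mouse number, the labels state neither exposure nor sex of a library, so neither CRD nor sex was tested. For this tissue the methods of the study name adolescent CRD and its controls, while the protocol in the labels also names adult CRD.

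In the cortex, Pvalb marks fast-spiking basket and chandelier cells, Sst marks cells that target dendrites and often also make Npy, Calb2 marks bipolar cells, and Cck marks a further set of basket cells. Cck is also made by many cortical pyramidal neurons. In the striatum, which includes the NAc, Calb1 is made by most projection neurons, while Pvalb, Calb2 and the combination of Sst, Npy and nitric oxide synthase mark separate scarce interneurons. In the SCN, calbindin and calretinin mark groups of local neurons. The peptides are cut from precursors and released from dense-core vesicles onto G protein-coupled receptors, and the 3 calcium-binding proteins bind calcium through EF-hand motifs and buffer it.

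On GRCm38, Pvalb (ENSMUSG00000005716) lies at chr15:78191114-78206400 on the minus strand, Calb1 (ENSMUSG00000028222) at chr4:15881264-15908064 on the plus strand and Calb2 (ENSMUSG00000003657) at chr8:110137502-110168210 on the minus strand. Of the peptide genes, Sst (ENSMUSG00000004366) lies at chr16:23889573-23890958, Cck (ENSMUSG00000032532) at chr9:121489824-121495694, Crh (ENSMUSG00000049796) at chr3:19693401-19695396 and Cort (ENSMUSG00000028971) at chr4:149125034-149126763, all on the minus strand. Npy (ENSMUSG00000029819) lies at chr6:49822710-49829507 on the plus strand. All 8 are protein-coding genes.

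Promoter sequences from RefSeq (GRCm38.p6) matched 5 of the 8 genes, Pvalb, Sst, Npy, Cort and Cck. Calb1, Calb2 and Crh had no entry. Motifs were searched on both strands in the 250 bases before the start: the cyclic AMP response element TGACGTCA, its shorter form TGACG, which the longer motif contains, and the E-box CACGTG, which clock transcription factors can bind. Sst, Cck and Npy are shown because they had the largest differences between the NAc and the PFC among the genes with an entry. Capitals mark the matches, and sequences run 5′ to 3′ on the strand of the gene. The Sst stretch is chr16:23890875-23890904 (minus strand, bases 60 to 31 before the RefSeq start), which GENCODE M21 places inside an exon from 23890607 to 23890958. The Cck stretch is chr9:121495695-121495944 (minus strand) and the Npy stretch is chr6:49822460-49822709 (plus strand), both bases 250 to 1 before the start.
Sst: cgcctccttggcTGACGTCAgagagagagt
Cck: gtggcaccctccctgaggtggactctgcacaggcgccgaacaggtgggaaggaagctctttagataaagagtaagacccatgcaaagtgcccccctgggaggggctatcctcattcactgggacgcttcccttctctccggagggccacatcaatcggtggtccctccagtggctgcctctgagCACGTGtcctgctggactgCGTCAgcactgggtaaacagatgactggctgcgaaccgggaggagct
Npy: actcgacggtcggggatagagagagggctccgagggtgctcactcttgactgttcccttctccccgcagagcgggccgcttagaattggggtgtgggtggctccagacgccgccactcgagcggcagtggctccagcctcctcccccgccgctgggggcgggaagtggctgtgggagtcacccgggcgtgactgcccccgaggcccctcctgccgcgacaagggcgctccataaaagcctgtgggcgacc
The longer motif was found in Sst, 48 bases before the start, and in 1.55% of all 32851 promoters. TGACG was found in Cck, Cort and Sst and in 17.8% of promoters, and CACGTG in Cck, 66 bases before the start, and in 6.02% of promoters. The Npy stretch and the Pvalb promoters held none of these letters in this window.

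Total counts per library ranged from 28879700 to 60009500 in the NAc, from 31216200 to 50333600 in the PFC and from 16496700 to 35389700 in the SCN, and 20.5% to 69.3% of them fell on the mitochondrial ribosomal RNA genes. Levels are in CPM, counts scaled to library size with TMM factors over the rows shared by both tables. Marker lists matched the labelled regions: all 6 markers of striatal projection neurons were called higher in the NAc against the PFC, all 7 markers of cortical glutamatergic neurons were called lower, and all 9 markers of SCN neurons were counted in the SCN. Some libraries stood apart. NAc libraries differed in cortical markers, whose summed level ranged from 12.1 to 470.9 CPM against 833 to 985 CPM in the PFC. In the SCN, the libraries of mice J1199 and J1140 held more of the striatal gene Ppp1r1b (118 and 60.3 CPM) than J1165 (8.78 CPM) and the 16 others (2.54 to 8.72 CPM). The SCN library of J1165 held 47.2 CPM of the X-inactivation transcript Xist, against 0.617 CPM in the NAc library and 0.390 CPM in the PFC library labelled J1165. SCN results are therefore also given without these 3 libraries, and SCN correlations without J1199 and J1140 alone. These 3 also held the least Sst of the SCN libraries (15.1 CPM in J1199, 27.996 CPM in J1165 and 29.7 CPM in J1140). In bulk tissue, fewer cells of a type and less RNA per cell cannot be told apart.

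Levels were compared between genes as CPM per kilobase of exon. In the NAc, Sst had the highest median (41.4 CPM per kb), followed by Calb1 (27.0), Cck (13.004), Npy (9.32), Calb2 (4.70), Pvalb (2.84) and Crh (2.25). Each neighbouring pair of this order overlapped in its range over the 26 libraries. In the PFC, Cck came highest (160.1 CPM per kb), followed by Sst (96.4), Npy (23.9), Calb1 (19.4), Pvalb (5.01), Calb2 (4.42) and Crh (2.15). There, the ranges of Cck (130.8 to 194 CPM per kb) and Sst (76.8 to 116 CPM per kb) did not overlap, nor did those of Sst and Npy, of Calb1 and Pvalb, or of Calb2 and Crh, while Npy overlapped Calb1 and Pvalb overlapped Calb2. In the SCN the order was Sst (64.9 CPM per kb), Calb2 (56.1), Calb1 (21.9) and Cck (7.60). The ranges of Sst and Calb2 overlapped there, as did those of Calb1 and Cck, while Calb2 and Calb1 did not overlap.

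**Figure D1:**
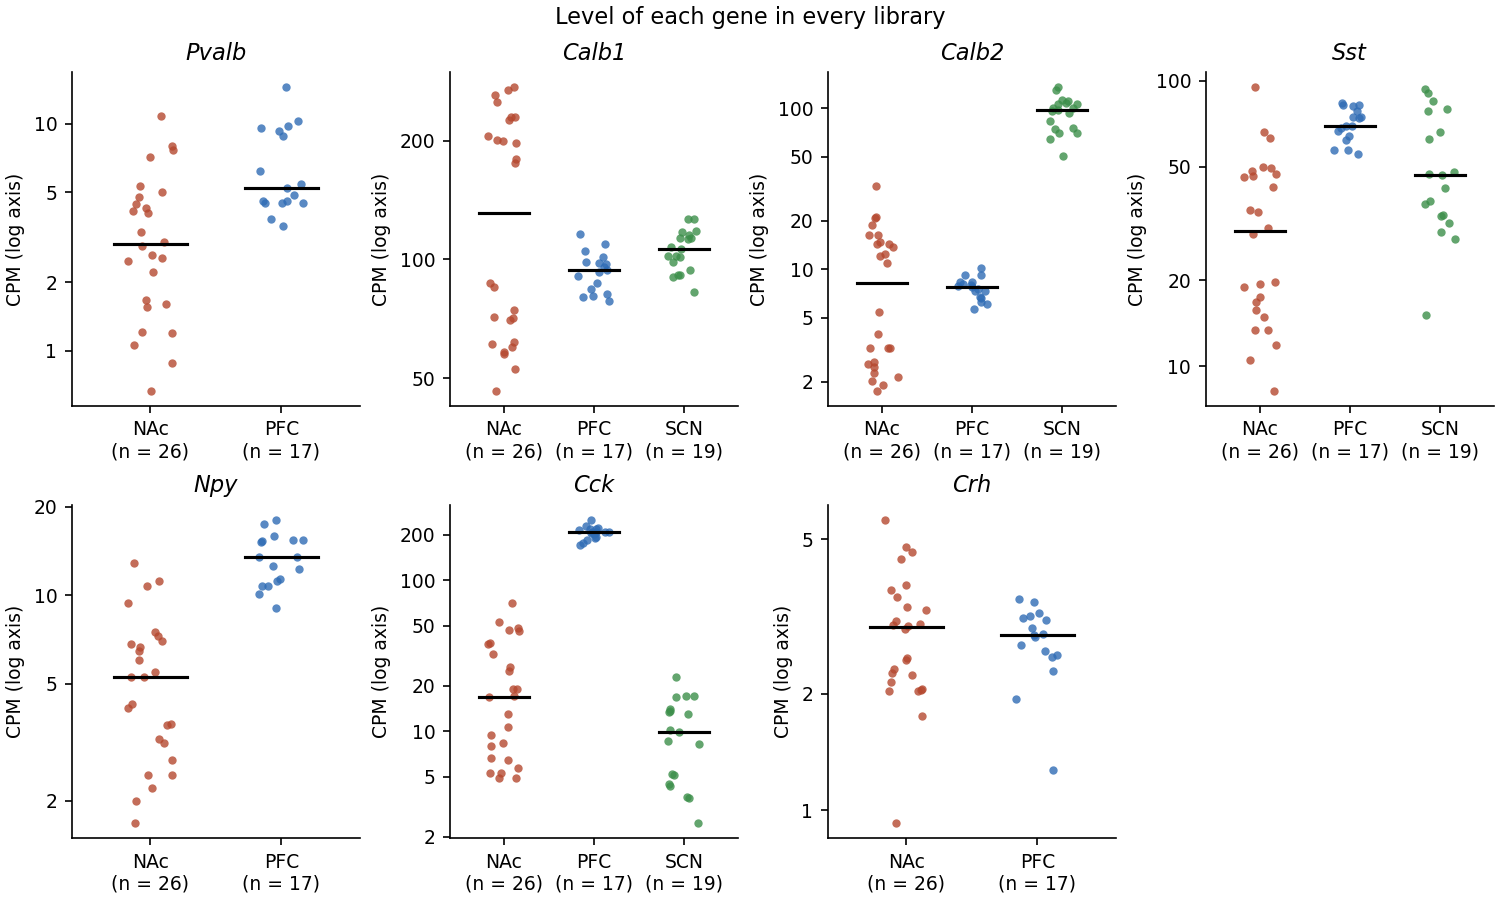
CPM (log axis) of each gene in every library of the NAc, PFC and SCN, where each point is a library and the bar is the median. Cck separates the PFC (171 to 253 CPM) from both other regions, Calb2 separates the SCN, and NAc libraries split around an empty interval in Calb1 (87.1 to 175 CPM).

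Between the NAc and the PFC, 5 of the 7 genes passed the test, 1 higher and 4 lower in the NAc. Cck, Npy, Sst and Pvalb were lower in the NAc, Calb1 was higher, and Calb2 and Crh did not pass. Calls required, in edgeR's quasi-likelihood test, a p below 0.05 after Benjamini-Hochberg adjustment and a fold change of at least 1.2. That rule called 45.4% of all 11569 rows, with 23.7% higher and 21.7% lower in the NAc. The median log2 fold change of the 7 genes was -0.87, against 0.02 over all rows.

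Cck, which encodes the precursor of cholecystokinin, differed most among the 7 genes. NAc libraries held 4.90 to 71.2 CPM (median 16.97) and PFC libraries 171 to 253 CPM (median 209). The regions did not overlap, as was the case for 9.48% of all rows. The log2 fold change was -3.19 ± 0.29 (SE; edgeR adjusted p = 1.4e-13), and Cck was lower in the NAc in 17 of 17 mice with both libraries. The cortical marker list moved the same way (7 of 7 lower in the NAc, summing to 12.1 to 470.9 CPM against 833 to 985 CPM), and its part in the lower Cck, Sst and Npy was not tested.

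Sst and Npy were also lower in the NAc in 17 of 17 mice. Sst, an inhibitory peptide, ranged from 8.21 to 94.9 CPM in the NAc (median 29.9) and from 55.3 to 83.4 CPM in the PFC (median 69.5). Of the 26 NAc libraries, 23 lay below the PFC range, 2 within it and 1 above. Its log2 fold change was -1.08 ± 0.21 (edgeR adjusted p = 2.1e-05). Npy ranged from 1.68 to 12.9 CPM in the NAc (median 5.27) and from 9.08 to 18.1 CPM in the PFC (median 13.5), and 22 NAc libraries lay below the PFC range. Its log2 fold change was -1.27 ± 0.18 (edgeR adjusted p = 7.1e-08). Crh, the releasing hormone of the stress axis and a peptide of some cortical interneurons, was low in both regions. It ranged from 0.928 to 5.62 CPM in the NAc (median 2.97) and from 1.27 to 3.50 CPM in the PFC (median 2.83). Of the NAc libraries, 18 lay within the PFC range, 7 above it and 1 below. Its log2 fold change was 0.10 (edgeR adjusted p = 0.53), with a 95% interval from -0.17 to 0.38.

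Pvalb ranged from 0.665 to 10.8 CPM in the NAc (median 2.95) and from 3.54 to 14.5 CPM in the PFC (median 5.22). Most NAc libraries were low, with 15 of 26 below the PFC range and 11 within it. The log2 fold change was -0.87 ± 0.25 (edgeR adjusted p = 0.0027), and Pvalb was lower in the NAc in 16 of 17 mice. In the PFC, the largest step between neighbouring libraries separated 11 libraries at up to 6.17 CPM from 6 at 8.85 CPM or more. The median count of Pvalb was 132 in the NAc and 220 in the PFC.

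For Calb1 and Calb2, NAc libraries lay on both sides of the PFC range. Calb1 ranged from 46.5 to 273 CPM in the NAc (median 131) and from 78.6 to 116 CPM in the PFC (median 94.2). Of the NAc libraries, 13 lay above the PFC range, 11 below it and 2 within it. Its log2 fold change was 0.63 ± 0.22 (edgeR adjusted p = 0.010), with 13 of 17 mice higher in the NAc. Calb2 ranged from 1.75 to 33.1 CPM in the NAc (median 8.18) and from 5.66 to 10.2 CPM in the PFC (median 7.71). Its log2 fold change was 0.37 ± 0.31 (edgeR adjusted p = 0.30), with a 95% interval from -0.23 to 0.97. Yet no NAc library lay within the PFC range: 13 were below it and 13 above. Only 2 of the 11569 rows (0.0173%) had NAc libraries on both sides of the PFC range and none inside. The other was the translation factor Eif1, with 1 library below and 25 above.

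With the mouse as a block, in the 17 mice with both regions, the log2 fold change of Calb2 turned to -0.72 ± 0.31 (edgeR adjusted p = 0.046) and passed the test as lower in the NAc. Without the block, the same mice gave -0.16 (edgeR adjusted p = 0.66). Calb2 was lower in the NAc in 12 of these mice and higher in 5. Over all NAc libraries, 13 lay below the PFC range of Calb2 and 13 above. The part of this in the change of sign was not tested. In the blocked fit the other differences were -4.19 for Cck, -1.80 for Npy, -1.72 for Sst, -1.29 for Pvalb and 0.75 for Calb1, all called, and 0.08 for Crh. This fit called 49.1% of all rows. By their numbers the mice form a lower group (to J1021) and an upper group (J1140 on), called ranges here. Within them Cck (-3.44 and -3.01), Npy (-1.50 and -1.10) and Sst (-1.30 and -0.93) were called in each range. Calb1 was called in neither (0.73, edgeR adjusted p = 0.054, and 0.53, edgeR adjusted p = 0.12), and Pvalb only in the lower range (-0.92 and -0.83, edgeR adjusted p = 0.022 and 0.054). Of all rows, 46.9% were called in the lower range and 43.1% in the upper. The interaction of region and range passed for none of the 7 genes and for 0 of all rows in edgeR, with 2279 rows at an unadjusted p under 0.05.

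**Figure D2:**
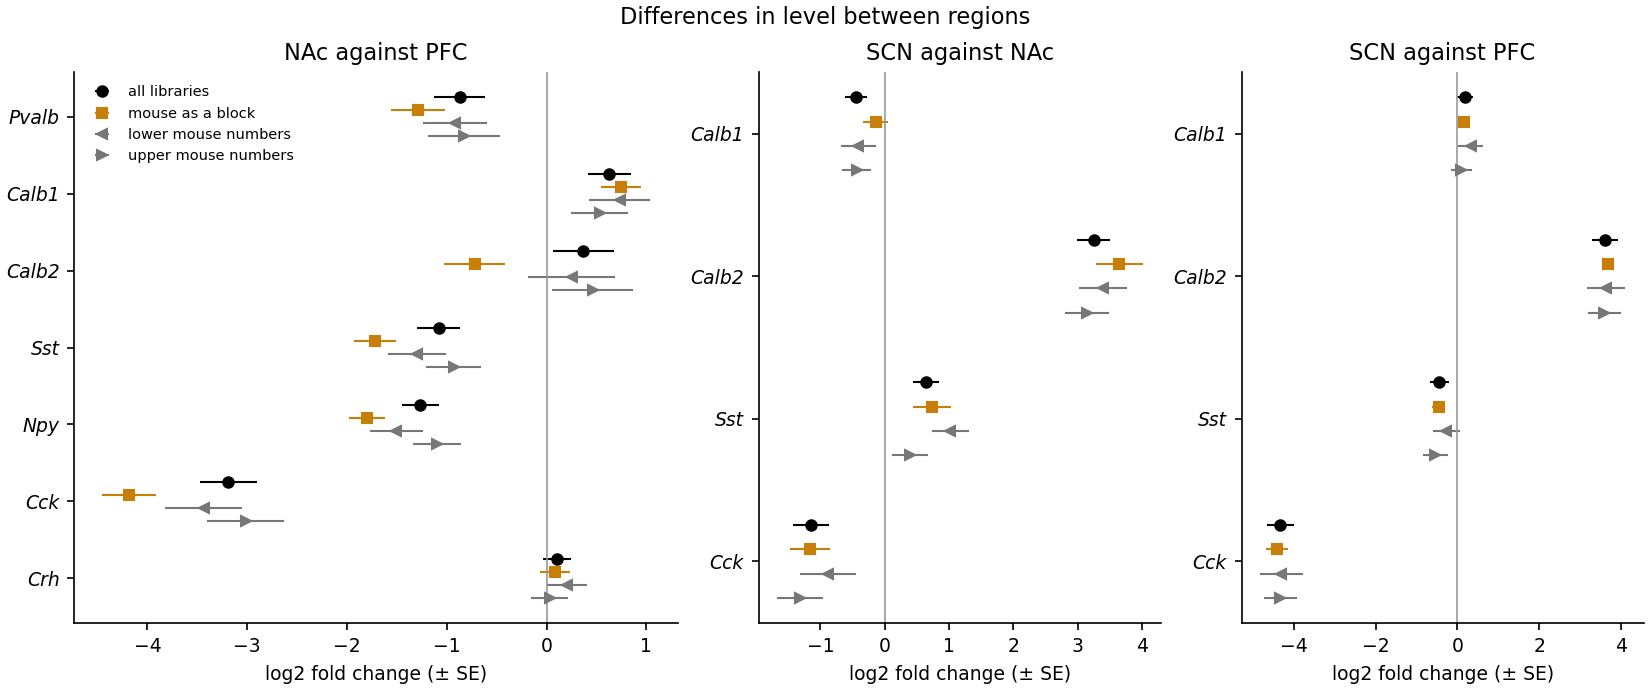
Log2 fold change (± SE) of each gene between regions, from all libraries, with the mouse as a block, and within each range of mouse numbers. Calb2 between the NAc and PFC is 0.37 with all libraries and -0.72 with the block, which keeps the 17 mice with both regions. Cck between the NAc and PFC stays between -4.19 and -3.01.

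The 26 NAc libraries fell into 2 separate sets of 13 by Calb1. The step from 87.1 to 175 CPM, a factor of 2.01, took up 39.4% of the log2 range. No other gene here had a step as wide, relative to its range, with at least 6 libraries on each side, in any region. Calb2 split the same libraries, with the order turned over: the 13 libraries above the Calb1 step held 1.75 to 5.44 CPM of Calb2 (median 2.57) and the 13 below it held 10.9 to 33.1 CPM (median 14.8). The sets were defined from these values, so they are described without a test. Between them, 363 of the 11569 rows (3.14%) did not overlap, 161 higher and 202 lower in the libraries above the step. The other 5 genes overlapped between the sets. Sst ranged from 8.21 to 34.8 CPM above the step (median 15.7) and from 29.1 to 94.9 CPM below it (median 47.2). Median levels above and below the step were 3.14 and 6.99 CPM for Npy, 6.69 and 38.0 CPM for Cck, 1.67 and 4.45 CPM for Pvalb, and 2.26 and 3.02 CPM for Crh.

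**Figure D3:**
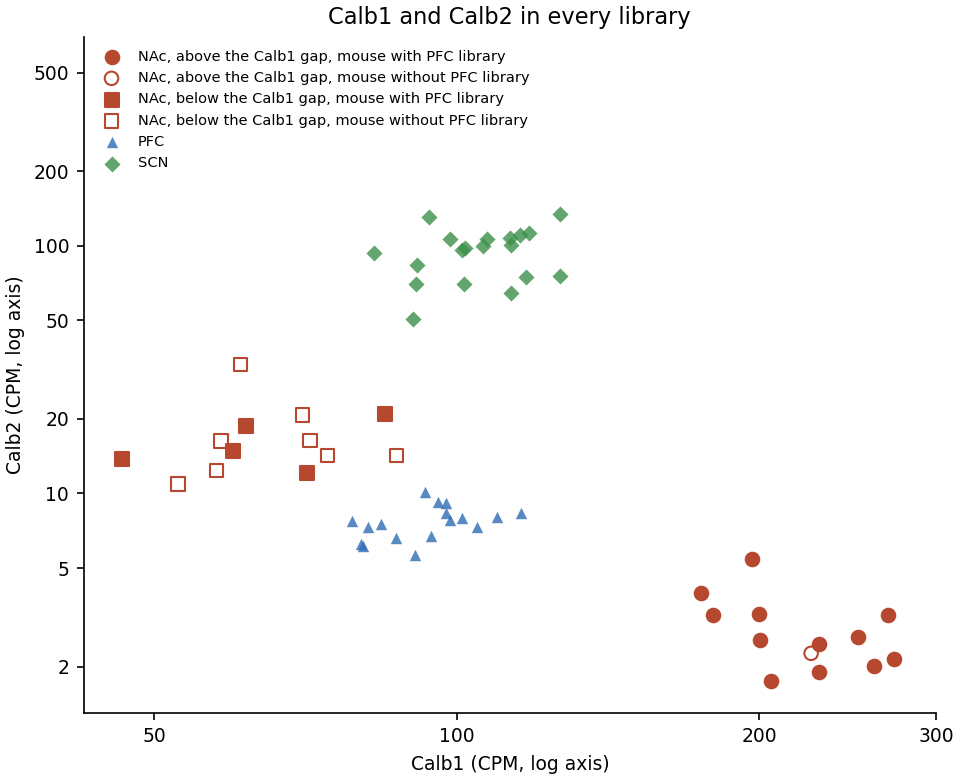
Calb1 against Calb2 (CPM, log axes) in every library, with NAc libraries marked by side of the Calb1 step and filled where the mouse also gave a PFC library. PFC libraries (5.66 to 10.2 CPM of Calb2) lie between the NAc sets, and SCN libraries lie above 50.6 CPM of Calb2.

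Markers of other cells moved with this split. The cortical glutamatergic list summed to 12.1 to 141 CPM above the step (median 36.7) and 69.5 to 470.9 CPM below it (median 200.2), and the striatal projection list to 1162.98 to 1665 CPM above and 666 to 1108 CPM below. Slc17a7, the vesicular glutamate transporter of cortical neurons, ranged from 4.77 to 93.2 CPM above and from 37.8 to 359 CPM below. The striatal dopamine receptor gene Drd1 ranged from 134 to 216 CPM above and from 63.9 to 114 CPM below. The share of mitochondrial ribosomal RNA was 45.6% to 69.3% above and 39.0% to 54.8% below. Of the libraries above the step, 12 came from mice with a PFC library and 1 did not, and of those below, 5 did and 8 did not. The ranges of mouse numbers were spread evenly, with 6 libraries of the lower and 7 of the upper range in each set, as were libraries with over 20 CPM of Xist (6 in each). The part of these in the Calb1 and Calb2 levels was not tested.

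The spread of the members was wider in the NAc than in the PFC. The SD of log2 CPM of Cck was 1.25 in the NAc and 0.14 in the PFC, a ratio of 9.03. This ratio was 6.11 for Calb2, 5.65 for Calb1, 4.86 for Sst, 2.76 for Npy, 1.71 for Pvalb and 1.56 for Crh, against a median of 1.39 over all rows. Of all rows, 99.9% had a smaller ratio than Cck and 63.3% a smaller one than Crh.

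In the SCN, calretinin was the gene that stood out. Calb2 ranged from 50.6 to 135 CPM there (median 97.8), with no overlap with the NAc or the PFC. It was higher than in the NAc by 3.25 ± 0.26 on the log2 scale (edgeR adjusted p = 3.8e-18) and higher than in the PFC by 3.62 ± 0.31 (edgeR adjusted p = 1.1e-16), in 19 of 19 and 12 of 12 mice. All 4 genes of the SCN table were called against the NAc, 2 higher and 2 lower, where the rule called 64.1% of 11133 shared rows, and 2 were called against the PFC, where it called 64.7% (33.7% higher in the SCN). Libraries of the regions did not overlap for 13.2% of rows against the NAc and 20.7% against the PFC. The SCN libraries form a table of their own, so region and table cannot be told apart.

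Cck was low in the SCN, from 2.47 to 23.0 CPM (median 9.92). It was lower than in the NAc by a log2 fold change of -1.14 ± 0.28 (edgeR adjusted p = 0.00024), in 16 of 19 mice, and lower than in the PFC by -4.34 ± 0.33 (edgeR adjusted p = 1.3e-18), in 12 of 12 mice without overlap. Sst ranged from 15.1 to 93.8 CPM (median 46.8). It was higher than in the NAc, with a log2 fold change of 0.64 ± 0.21 (edgeR adjusted p = 0.0043) and 13 of 19 mice higher. Against the PFC its log2 fold change was -0.44 (edgeR adjusted p = 0.075), with a 95% interval from -0.89 to 0.01. With the mouse as a block it was -0.46 (edgeR adjusted p = 0.017), which was called. That fit kept J1165, whose Xist level differed between regions, and was not repeated without it.

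Calb1 was even across SCN libraries, from 82.8 to 127 CPM (median 106), and lay within the empty NAc interval in all but the lowest library. Against the NAc its log2 fold change was -0.45 ± 0.18 (edgeR adjusted p = 0.019), but 10 of 19 mice were higher in the SCN and 9 lower, and in the 19 mice with both libraries it was -0.42 without the mouse as a block (edgeR adjusted p = 0.067) and -0.14 with it (edgeR adjusted p = 0.53), not called in either. Against the PFC the log2 fold change was 0.18 (edgeR adjusted p = 0.41), with a 95% interval from -0.20 to 0.56. Within the ranges of mouse numbers, Calb1 was called against the NAc in neither (-0.41 and -0.44), Cck only in the upper range (-0.88 and -1.32) and Sst only in the lower (1.02 and 0.39). Without J1199, J1140 and J1165 the same genes were called in both comparisons. There the rule called 64.9% of shared rows against the NAc and 65.3% against the PFC.

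Most genes for receptors of these peptides were lower in the NAc. Of 14 receptor and binding protein genes listed, 10 were counted in the NAc and PFC. Of these, 8 were lower in the NAc, 1 was higher and 1 was not called, against 21.7% lower and 23.7% higher over all rows. Their median log2 fold change was -1.32, against 0.02 over all rows. The receptor of cholecystokinin in the brain, Cckbr, held 4.88 CPM (median) in NAc libraries and 29.4 CPM in PFC libraries, with a log2 fold change of -2.56 ± 0.09 (edgeR adjusted p = 4.2e-28). The somatostatin receptor genes that were counted were all lower, with log2 fold changes of -2.04 for Sstr1, -0.95 for Sstr2, -2.12 for Sstr3 and -0.97 for Sstr4. Sstr5 was listed but not counted. Of the neuropeptide Y receptor genes, Npy1r was lower (-1.24 ± 0.11) and Npy2r higher (1.78 ± 0.14), while Npy5r was not called (0.18). Though Crh itself was not called, its receptor gene Crhr1 (-1.63 ± 0.09) and Crhbp, which encodes its binding protein (-1.40 ± 0.23), were lower in the NAc. Of the 14, 6 were among the rows shared with the SCN. Of these, 3 were higher and 2 lower in the SCN than in the NAc, against 33.1% higher and 31% lower over shared rows. Cckbr had a median of 2.50 CPM in the SCN and a log2 fold change of -3.50 ± 0.12 against the PFC.

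All 18 genes for peptide processing and secretory granules were counted. In the NAc against the PFC, 12 were lower, 1 higher and 5 not called, against 21.7% lower and 23.7% higher over all rows. Their median log2 fold change was -0.49. The prohormone convertase genes Pcsk1 (-1.89 ± 0.13) and Pcsk2 (-0.76 ± 0.06), and Pam, whose enzyme amidates peptides such as cholecystokinin and neuropeptide Y (-0.75 ± 0.04), were among those lower. Scg2, which encodes a granule protein, was the one higher (1.46 ± 0.10). In the SCN against the NAc, where 33.1% of shared rows were higher and 31% lower, 10 were higher and 4 lower, with a median of 0.31. Pcsk1 (1.59 ± 0.12), Scg2 (1.56 ± 0.10) and the granule gene Chga (1.21 ± 0.18) were among those higher.

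Of 30 interneuron identity genes, 23 were counted in the NAc and PFC, with 9 higher and 7 lower in the NAc and 7 not called. Over all rows, 23.7% were higher and 21.7% lower. The enzymes and transporter of GABA, Gad1 (1.57 ± 0.07), Gad2 (2.78 ± 0.10) and Slc32a1 (2.47 ± 0.07), were higher in the NAc. Striatal projection neurons use them too. Vip, a peptide of cortical interneurons and of the SCN, was lower in the NAc (-3.49 ± 0.26) and higher in the SCN than in the NAc (4.72 ± 0.29). Lhx6, a transcription factor of Pvalb and Sst cells, was higher in the NAc (0.95 ± 0.18), while Pvalb and Sst were lower. Satb1, a chromatin protein needed in Sst cells, was lower (-2.23 ± 0.10). Nos1, made with Sst and Npy by striatal interneurons, was not called (0.21, edgeR adjusted p = 0.33). In the SCN against the NAc, 6 of 22 were higher and 10 lower, where 33.1% of shared rows were higher and 31% lower.

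Of 14 fast-spiking cell genes, 12 were counted, with 3 higher and 6 lower in the NAc and 3 not called. Over all rows, 23.7% were higher and 21.7% lower. The potassium channel gene Kcnc2 (-1.61 ± 0.21) and its modulator Kcns3 (-1.41 ± 0.15) were lower, as Pvalb was. Syt2, a calcium sensor of fast release, was higher (2.47 ± 0.17), and Kcnc1 was not called (0.07). Of 27 other EF-hand genes, 24 were counted, with 6 higher, 8 lower and 10 not called, against the same shares over all rows. Ncald (-2.51 ± 0.17) and Vsnl1 (-2.12 ± 0.17), neuronal calcium sensors, were lower in the NAc, and Necab2 (2.55 ± 0.10) was higher. In the SCN against the PFC, where 31% of shared rows were lower and 33.7% higher, 15 of the 24 were lower and 7 higher. Necab1 was among those lower (-3.84 ± 0.17).

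Within regions, each pair of genes was correlated over libraries on log2 CPM, with two-sided permutation tests adjusted over all pairs of a region. In the NAc, 15 of 21 pairs passed over all 26 libraries, 10 positive and 5 negative. Because the libraries fall into separate sets by Calb1, no value over all 26 is given. Of a member with any other row, 30.2% of relations were as strong as the weakest pair that passed. Within the 13 libraries above the Calb1 step, 0 of 21 pairs passed the permutation test and 2 had an unadjusted p under 0.05. Within the 13 below it, 1 passed.

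That pair was Sst and Npy, with r = 0.83 (permutation p = 0.00051, adjusted p = 0.011) and rho = 0.82 (permutation p = 0.00089, adjusted p = 0.019). Without the 2 libraries farthest from the median of Sst r was 0.76 (adjusted p = 0.16). In the libraries above the step r was 0.75 (permutation p = 0.0027, adjusted p = 0.058) and rho 0.70 (permutation p = 0.0092, adjusted p = 0.19), and r fell to 0.50 without the 2 farthest. Within the ranges of mouse numbers r was 0.83 and 0.67 above the step (6 and 7 libraries) and 0.79 and 0.85 below it. In the libraries below the step, 0.433% of relations of a member with any other row were as strong as this pair, and Npy ranked 24 among the 11568 other rows by r with Sst. Calb1 and Calb2, which split the libraries, had r = -0.48 above the step and 0.20 below it, and neither passed. The sets were cut on Calb1, which narrows the range of both genes within each set. These values therefore cannot show whether the genes are related over the NAc.

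**Figure D4:**
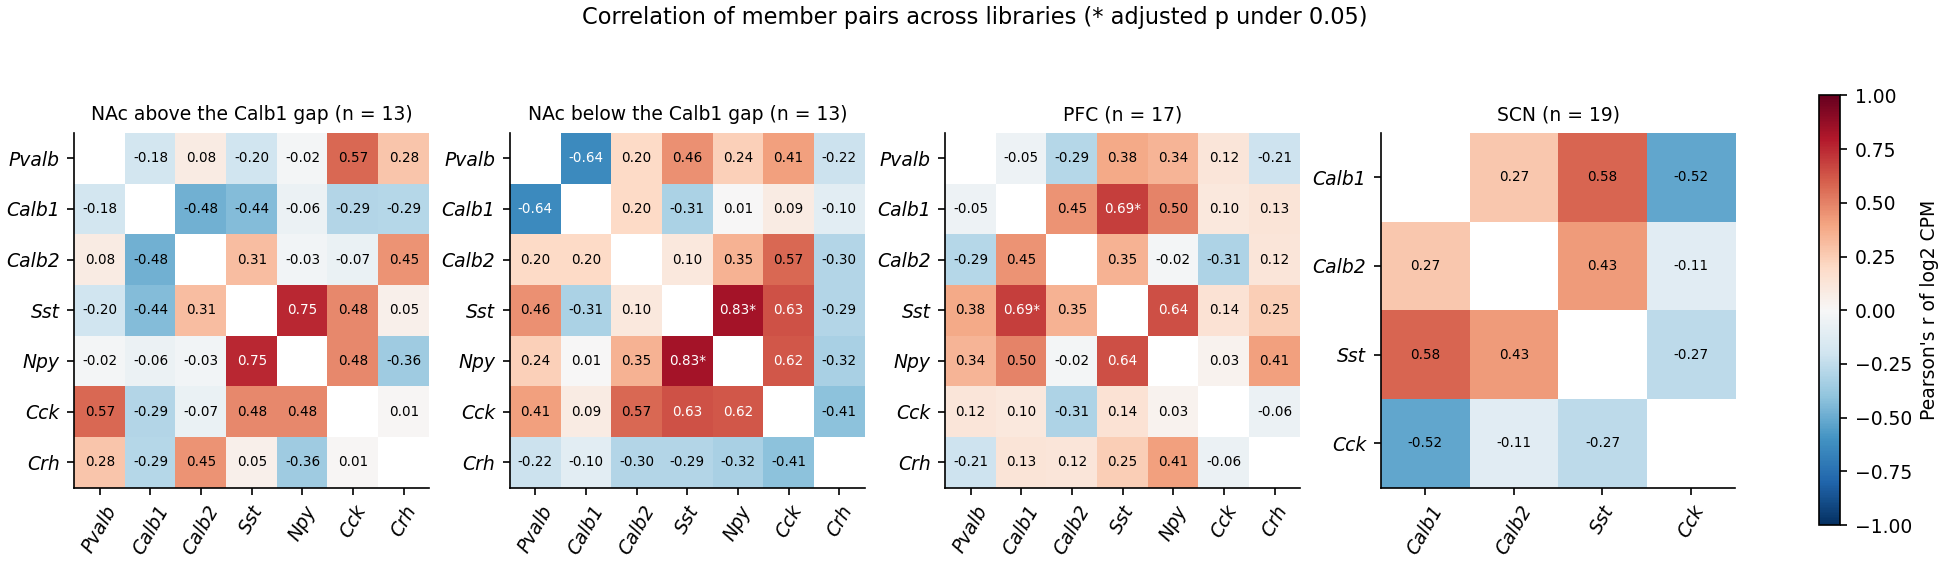
Pearson's r of log2 CPM for each pair of genes over the NAc libraries of each set, the PFC and the SCN, with an asterisk where the permutation p adjusted over the pairs was under 0.05. Sst and Npy had r of 0.75, 0.83 and 0.64 in the NAc sets and the PFC.

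In the PFC (n = 17), 1 of 21 pairs passed. Calb1 and Sst had r = 0.69 (permutation p = 0.0023, adjusted p = 0.049) and rho = 0.65 (permutation p = 0.0050, adjusted p = 0.061), with r = 0.78 and 0.63 by range of mouse numbers. Leaving out the 2 farthest libraries gave 0.69 (adjusted p = 0.054). Of a member with any other row, 0.847% of relations were as strong. Sst and Npy had r = 0.64 (permutation p = 0.0057, adjusted p = 0.060) and rho = 0.65 (permutation p = 0.0058, adjusted p = 0.061), which did not pass, and r = 0.44 without the 2 farthest. In the SCN (n = 19), 0 of 6 pairs passed the permutation test and 2 had an unadjusted p under 0.05. Calb1 had r = 0.58 with Sst (permutation p = 0.0091, adjusted p = 0.055) and -0.52 with Cck (permutation p = 0.024, adjusted p = 0.073). Without J1199, J1140 and J1165, 1 of 6 passed, Calb1 with Cck (r = -0.64, permutation p = 0.0083, adjusted p = 0.050; rho = -0.61, permutation p = 0.014, adjusted p = 0.083; r = -0.79 and -0.61 by range), and Calb1 with Sst had r = 0.36. With J1165 kept, r was -0.67 (permutation p = 0.0037, adjusted p = 0.022; rho = -0.63, permutation p = 0.0075, adjusted p = 0.045) and 0.44 (adjusted p = 0.15). Of a member with any other row, 2.33% of relations were as strong in the 16 libraries.

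Members were also correlated with scores of other cell types, the mean z-score of a marker list. The share of all rows that follow each score is not given here. These relations therefore cannot be called particular to the members. In both NAc sets Cck and Npy rose with the score of cortical glutamatergic neurons. Cck had r = 0.83 above the Calb1 step (permutation p = 0.00045, adjusted p = 0.016; rho = 0.70, permutation p = 0.010, adjusted p = 0.088) and 0.85 below it (permutation p = 0.00012, adjusted p = 0.0042; rho = 0.80, permutation p = 0.0015, adjusted p = 0.039). Npy had r = 0.76 above (permutation p = 0.0032, adjusted p = 0.037; rho = 0.78, permutation p = 0.0026, adjusted p = 0.045) and 0.81 below (permutation p = 0.00079, adjusted p = 0.012; rho = 0.79, permutation p = 0.0022, adjusted p = 0.039). Sst had r = 0.76 above (permutation p = 0.0017, adjusted p = 0.031; rho = 0.85, permutation p = 0.00042, adjusted p = 0.015) and 0.67 below, which did not pass (permutation p = 0.012, adjusted p = 0.065; rho = 0.67, permutation p = 0.015, adjusted p = 0.097). Without the 2 libraries farthest in the score, Sst above the step kept its call (r = 0.90, adjusted p = 0.0024), and the 4 relations of Cck and Npy had r from 0.63 to 0.75 and did not pass. Within the lower and upper ranges of mouse numbers, r above the step was 0.94 and 0.85 for Cck, 0.94 and 0.40 for Npy and 0.72 and 0.82 for Sst, and below it 0.81 and 0.89, 0.66 and 0.83, and 0.19 and 0.70. Calb2 went with astrocytes above the step (r = 0.73, permutation p = 0.0046, adjusted p = 0.040; rho = 0.73, permutation p = 0.0070, adjusted p = 0.082) and against striatal projection neurons below it (r = -0.80, permutation p = 0.0020, adjusted p = 0.018; rho = -0.65, permutation p = 0.018, adjusted p = 0.097). Below the step Cck also fell with oligodendrocytes (r = -0.80, permutation p = 0.0010, adjusted p = 0.012; rho = -0.68, permutation p = 0.013, adjusted p = 0.097). None of these 3 passed without the 2 farthest libraries (r = 0.43, -0.52 and -0.56). By range of mouse numbers they were 0.92 and 0.21, -0.72 and -0.79, and -0.83 and -0.85.

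**Figure D5:**
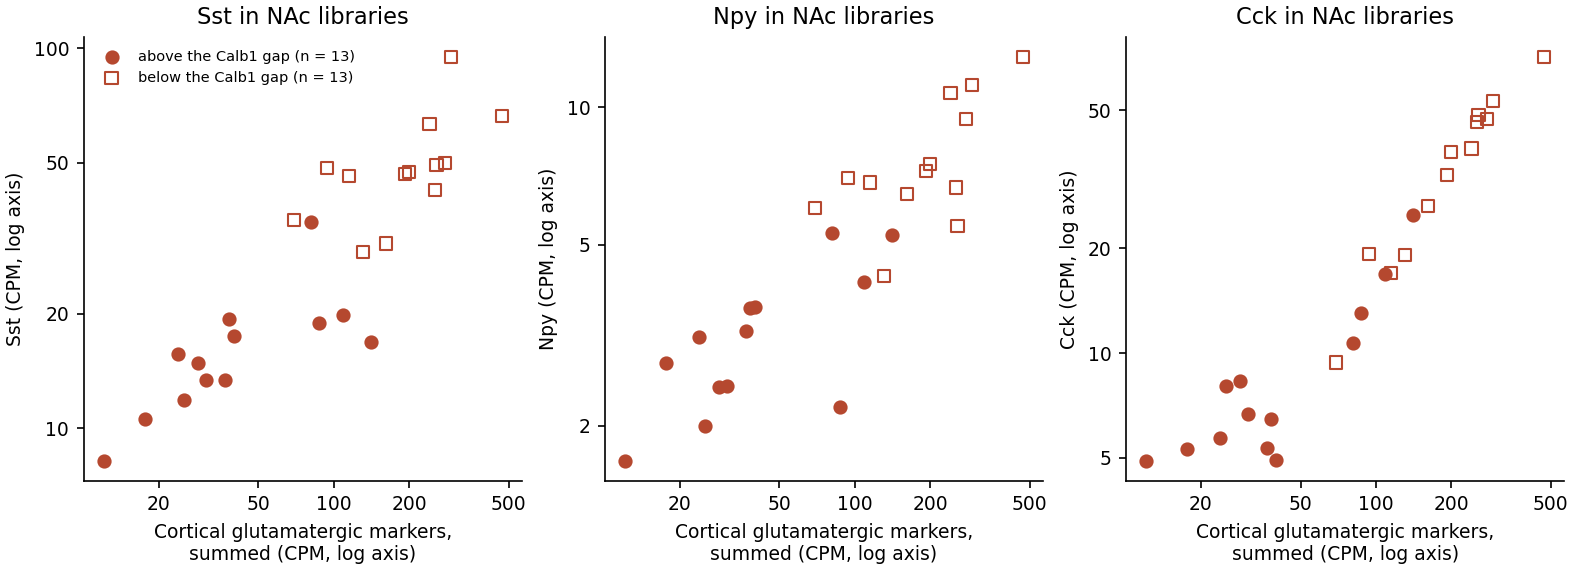
Sst, Npy and Cck against the summed level of 7 cortical glutamatergic markers (CPM, log axes) in the 26 NAc libraries, marked by side of the Calb1 step. Cck runs from 4.90 CPM where the markers sum to 12.1 CPM to 71.2 CPM where they sum to 470.9 CPM.

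In the PFC, Cck fell with the cortical score (r = -0.76, permutation p = 0.00073, adjusted p = 0.026; rho = -0.60, permutation p = 0.012, adjusted p = 0.21). Without the 2 libraries farthest in the score, r was -0.45 and did not pass (adjusted p = 0.40). By range of mouse numbers it was -0.34 and -0.92. In the SCN, Calb1 (r = -0.59, permutation p = 0.0028, adjusted p = 0.034; rho = -0.55, permutation p = 0.015, adjusted p = 0.25) and Sst (r = -0.62, permutation p = 0.0023, adjusted p = 0.034; rho = -0.46, permutation p = 0.050, adjusted p = 0.30) fell with the striatal score. By range of mouse numbers r was 0.32 and -0.64 for Calb1 and 0.45 and -0.69 for Sst. Without J1199, J1140 and J1165, r was -0.18 and 0.064, and with J1165 kept -0.20 and 0.0063. In the 16 libraries 3 of 24 relations passed. With the score of SCN neurons, Calb1 had r = -0.72 (permutation p = 0.0011, adjusted p = 0.025; rho = -0.71, permutation p = 0.0028, adjusted p = 0.036) and Cck 0.64 (permutation p = 0.0061, adjusted p = 0.049; rho = 0.58, permutation p = 0.021, adjusted p = 0.17). Calb2 had r = -0.71 with the ependymal score (permutation p = 0.0021, adjusted p = 0.025; rho = -0.71, permutation p = 0.0030, adjusted p = 0.036). By range these were -0.92 and -0.52, 0.74 and 0.57, and -0.77 and -0.66. Without the 2 farthest libraries they were -0.52, 0.44 and -0.70, and with all 19 libraries -0.16, 0.56 and -0.40, and did not pass. With J1165 kept they were -0.62 (adjusted p = 0.092), 0.57 (adjusted p = 0.13) and -0.72 (adjusted p = 0.025), so the relations of Calb1 and Cck passed only without J1165.

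Some genes outside the list followed a member over libraries, which is given as a description, since libraries share depth and tissue makeup. In the 17 PFC libraries, Pvalb was most like Cd34 (r = 0.86), followed by the sodium channel gene Scn1a (0.85). Within the 13 NAc libraries above the Calb1 step, Sst was most like Dscam (0.93), a neuronal adhesion gene, Npy like Trim9 (0.95) and Cck like Cadps2 (0.92), which acts in dense-core vesicle release. Within the 13 below it, Cck was most like Slc17a7 (0.98), and Tbr1, a cortical transcription factor, was the third (0.97). There Pvalb was most like Tmem266 (0.94) and Calb1 like Tpm3 (0.93). In the 19 SCN libraries, Calb2 was most like the hypothalamic transcription factor Fezf1 (0.87) and the GABA transporter gene Slc6a11 (0.82).

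Levels of a gene in different regions of the same mouse were then compared, paired by mouse number with J1165 kept. Of 11 relations between regions of the same mouse (7 between the NAc and PFC in 17 mice, 4 between the SCN and NAc in 19 mice), 0 passed the permutation test and 1 had an unadjusted p under 0.05. That was Cck between the NAc and PFC, with r = 0.49 (permutation p = 0.048, adjusted p = 0.53) and rho = 0.54 (permutation p = 0.027). The other 10 had r from -0.31 to 0.36.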

How the data were processed

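Libraries were made with a SmartSeq HT kit, which does not mark strand. The authors used HISAT2 and GRCm38 for alignment and HTSeq for counting, removed genes with low counts and deposited the counts without normalization, in 1 table for the NAc and PFC and 1 for the SCN. Depth per library is given with the results. Positions and exon lengths came from GENCODE M21 on the same build, where no other gene overlapped an exon of the 8 genes. Regions were compared with edgeR 4.0.16 in R 4.3.3 (TMM, filterByExpr), the SCN on the 11133 rows of both tables. DESeq2 1.42.0 was an alternative. In simulated counts of the NAc and PFC, edgeR recovered 196 of 200 genes changed 2-fold among 11569 and called 6 others. SEs are the fold change divided by the root of F. Libraries were taken as paired by the mouse number in their labels. This kept J1165 in the SCN pairs, though Xist was high in its SCN library and low in its NAc and PFC libraries. The blocked fits and same-mouse comparisons were not repeated without it. Deviations of NAc and PFC libraries from their group means correlated with r from -0.449 to 0.272 (median 0.006, over 0.1 in 7 of 17 mice).

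Correlations used log2 CPM (prior count 2) and 100000 permutations (scipy 1.17.1, numpy 2.4.6 and pandas 2.3.3; Python 3.11.15). On simulated data of all 26 NAc libraries the correlation test found all 200 genes strongly tied to a score and called 4 of 200 untied ones. Smaller sets of libraries and weaker ties were not simulated. Scores left out genes with a mean under 1 CPM and lists of fewer than 3 genes, so no cortical score was made in the SCN. Members, lists and tests were chosen with earlier results of these data known. Named genes were the members, the listed genes and, per member and region, the 3 protein-coding genes with the highest r, and Eif1, Xist and the split of NAc libraries were chosen after values were seen. By the labels, each library is from a separate mouse within its region.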

Additional observations from a re-analysis of the deposited data

How the results depend on the processing

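Calls were recomputed with DESeq2, its size factors, other filters, nuclear protein-coding genes only, each range of mouse numbers, the mouse as a block and, added after seeing the data, without NAc J1159, which had a high share of ribosomal RNA. Over all rows the number called stayed within 1.5 times in each comparison. Of 150 recomputed fold changes of members, 138 had the same sign and call, 9 lost the call, 1 gained it and 2 changed sign. The last were Calb2 between the NAc and PFC, at -0.72 with the replicate block and -0.16 without it in the same mice. In the same mice, adding the block for the pairing by mouse changed the calls of Calb2 and, in the SCN, of Sst against the PFC (-0.35 to -0.46) and no other member. Calb1 between the SCN and NAc was not called in these mice without the block (-0.42) or with it (-0.14). In the upper range of mouse numbers 3 of the 7 members were called between the NAc and PFC (43.1% of all rows), and in the lower and upper ranges 2 of 4 between the SCN and NAc (63.3% and 60.6% of all rows).

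Correlations depended on more choices. The number of member pairs that passed in the NAc was 15, and 9 in the lower range of mouse numbers, 0 in the libraries above the Calb1 step and 1 in those below, sets chosen after seeing the data. In the PFC it was 1, 2 with DESeq2 size factors, and 0 with Spearman's rho, without the 2 farthest libraries and in each range. In the SCN it was 0, and 1 without J1199, J1140 and J1165 or, chosen after seeing the data, without J1199 and J1140 alone. Relations with tissue scores that passed in the NAc were 21, falling to 11 and 12 within the lower and upper ranges, and 4 in each set by Calb1. In the PFC they were 1, 5 with DESeq2 size factors, and 0 with Spearman's rho and in the lower range. In the SCN they were 2, 1 without J1199 and J1140, and 0 with Spearman's rho, nuclear protein-coding scaling, without the 2 farthest libraries and in each range. The relation with the striatal score changed sign in the lower range for Calb1 (0.32) and Sst (0.45), and for Sst without the 3 SCN libraries (0.064) or without J1199 and J1140 (0.0063). The cause of these shifts was not tested. Crh and Pvalb have the lowest median counts here, but the SE of the difference between the NAc and PFC was largest for Calb2 (0.31) and Cck (0.29).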
